A study of Homo sapiens with 24 samples.

Results

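The baseline of Clone 28, one of 3 T47D clones that carry a degron tag on the endogenous TRPS1 gene, was compared with the baselines of Clone 35 and Clone 39. T47D is an established line of luminal, estrogen receptor-positive breast cancer cells, and TRPS1 is a GATA-type transcriptional repressor that luminal cells express at a high level. All 12 libraries compared came from cells given vehicle alone (0.1% v/v DMSO, 90 min): 4 of Clone 28, against 4 of Clone 35 and 4 of Clone 39, out of 24 libraries in the series. The other 12 libraries were made from the same 3 clones after 90 min with 100 nM dTAG-13, the molecule that brings the FKBP-tagged protein to an E3 ubiquitin ligase. They took no part in choosing genes; they measured the same clone differences again, and entered a test of whether a difference changed with treatment and 1 alternative fit over all 24 libraries. In all 3 clones the hygromycin-selected tag sits on TRPS1, some copies of the gene are disrupted, and tagged TRPS1 is the only form of the protein made; each clone grew from 1 cell of a puromycin-selected parent in which sequencing had shown no clear insertion at TRPS1. Each group is therefore 1 clone, and its 4 replicates are dishes treated and collected at different times of 1 day, so that the p-values below measure the spread between dishes of a clone and not the spread between clones.

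Precision run-on sequencing (PRO-seq) maps RNA polymerases that are engaged in transcription, so a gene's read count reflects polymerase on the gene rather than its stored mRNA. Sublines of one cancer line can differ in chromosome content, because such lines are aneuploid and keep rearranging, and also in epigenetic states that are passed on at cell division, such as the silencing of one parental copy of an imprinted gene. A gene was called specific to Clone 28 when it differed in the same direction from Clone 35 and from Clone 39, each at an adjusted p under 0.1 (quasi-likelihood test of edgeR, adjusted over all genes tested after Benjamini and Hochberg). Both comparisons use the same 4 Clone 28 libraries, so they are not independent of each other. Levels are given as CPM, read counts scaled to 1 common library size, and differences as fold or as log2 fold change with its standard error.

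The DMSO libraries held 3626852 to 7106656 gene reads, and those of Clone 28 4185233 to 5108645. The first principal component (36.7% of the variance) separated the clones and the second (17.1%) separated the replicate numbers. Luminal genes such as ESR1 (mean 1610 CPM in Clone 28 and 1530 CPM in the other clones) were high in every library, whereas KRT5, KRT14, KRT17, LUM, CD79A, LYZ and TYROBP, which mark basal, stromal and immune cells, were at 0 to 3 reads per library. Some other markers of such cells were read: in Clone 28 and in the other clones, the basal factor TP63 had means of 13.1 and 12.1 CPM, the collagens COL1A1 and COL3A1 11.4 and 13.3 CPM and 3.03 and 4.70 CPM, and PTPRC, of immune cells, 1.98 and 2.62 CPM; none of these was specific to Clone 28. For TP63 the other clones differed: by edgeR, Clone 28 was below Clone 35 (log2 -0.33 ± 0.13, adjusted p = 0.0909) and above Clone 39 (0.79 ± 0.16, adjusted p = 3.37e-05). One library stood apart: replicate 1 of Clone 28 held 5221 CPM of small nucleolar RNA (snoRNA) genes, against 2243 to 2640 CPM in the other Clone 28 libraries and 1641 to 2840 CPM in the DMSO libraries of Clones 35 and 39. Replicate 2 of Clone 35 with dTAG-13 was also high, at 4596 CPM. Where a count of calls in the text changes by over 1.5 times without either library, the count without it stands beside it.

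Of 21254 genes tested, Clone 28 was higher than both other clones at 1092 (5.14%) and lower at 679 (3.19%). These counts were 911 and 478 without replicate 1 of Clone 28, 430 and 191 with DESeq2, and 380 and 221 without the replicate number in the model. DESeq2 gave no adjusted p against Clone 35 for 1649 genes, and here and below its counts take these as not called. The pairwise comparisons were unequal: Clone 28 was above Clone 35 at 1769 genes (8.32%) and below it at 1237 (5.82%), and was above Clone 39 at 4338 (20.4%) and below it at 3691 (17.4%). The median absolute log2 difference was 0.111 between Clones 28 and 35, 0.181 between Clones 28 and 39, and 0.157 between Clones 35 and 39. Fewer genes were specific to Clone 35 (418 higher, 1.97%, and 518 lower, 2.44%) and more were specific to Clone 39 (2266 higher, 10.7%, and 2828 lower, 13.3%). Most differences particular to Clone 28 were small. A log2 fold change past 1 in both comparisons was seen for 50 higher genes (0.235%) and 42 lower genes (0.198%), or 40 and 34 without replicate 1 of Clone 28, and all 4 Clone 28 libraries lay outside all 8 others for 457 genes upwards (2.15%) and 365 downwards (1.72%). In bulk counts, a change in every cell and a change in a share of the cells cannot be told apart. Just inside the threshold stood SNORD52, with an adjusted p of 0.0999 in the weaker comparison, and just outside it MOB3C, with 0.100.

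**Figure D1:**
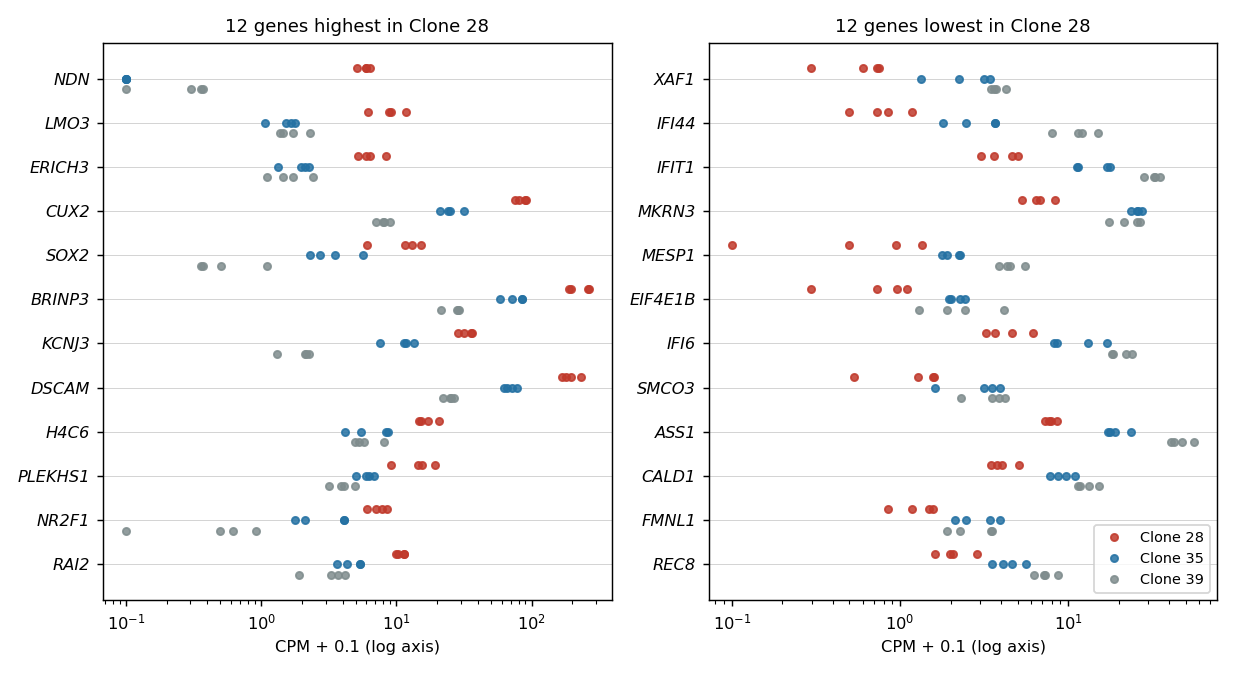
CPM plus 0.1, on a log axis, of the 12 highest and 12 lowest protein-coding genes specific to Clone 28; each point is 1 DMSO library, coloured by clone (n = 4 per clone). By the rule that picked these genes, the Clone 28 points of each gene lie wholly above or wholly below those of Clones 35 and 39.

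The 12 protein-coding genes furthest above both other clones are LMO3, CUX2, BRINP3, DSCAM, KCNJ3, SOX2, NR2F1, H4C6, ERICH3, PLEKHS1, RAI2 and NDN. LMO3, a LIM-domain cofactor of transcription, was at 11.8, 9.04, 6.06 and 8.68 CPM in Clone 28, at 1.43, 1.69, 1.55 and 0.967 CPM in Clone 35, and at 1.61, 1.29, 1.36 and 2.20 CPM in Clone 39. Every Clone 28 library was far above the other 8, which overlapped with each other, and the gene was 6.13-fold higher than in Clone 35 (log2 2.62 ± 0.26 SE, adjusted p = 1.37e-12) and 5.35-fold higher than in Clone 39 (2.42 ± 0.27, adjusted p = 1.02e-11). LMO3 lies on the short arm of chromosome 12 (hg38 chr12:16548372-16610594, minus strand) and overlaps 2 genes on the other strand.

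A second kind of gene stood in steps, highest in Clone 28, lower in Clone 35 and lowest in Clone 39. CUX2, a homeobox repressor (chr12:111034165-111350554, plus strand), was at 88.8, 91.1, 75.3 and 80.9 CPM in Clone 28, at 31.7, 24.8, 24.01 and 21.0 CPM in Clone 35, and at 8.84, 8.00, 7.86 and 6.99 CPM in Clone 39. The 3 groups did not overlap, and Clone 28 was 3.35-fold above Clone 35 (log2 1.75 ± 0.076, adjusted p = 5.70e-29) and 10.6-fold above Clone 39 (3.41 ± 0.10, adjusted p = 1.07e-39). BRINP3, a gene best known from the nervous system, was at 263, 262, 197 and 189 CPM in Clone 28, 84.7, 84.8, 71.3 and 57.9 CPM in Clone 35, and 28.9, 28.1, 21.1 and 28.5 CPM in Clone 39. DSCAM, a cell adhesion molecule of neurons, was at 230, 194, 167 and 180 CPM in Clone 28, 78.5, 66.2, 72.0 and 62.0 CPM in Clone 35, and 26.5, 25.3, 24.9 and 21.95 CPM in Clone 39. KCNJ3, a subunit of an inwardly rectifying potassium channel, was at 35.5, 36.0, 31.4 and 28.2 CPM, then 13.4, 11.7, 7.44 and 11.2 CPM, then 1.21, 2.06, 2.17 and 1.996 CPM, in the same order of clones. In each of these genes the clones kept 1 order with no overlap, and Clone 28 exceeded Clone 35 by 3.05-fold, 2.75-fold and 3.03-fold and Clone 39 by 8.40-fold, 7.82-fold and 17.8-fold for BRINP3, DSCAM and KCNJ3. The same order was common but not general: among the 1092 higher genes, Clone 35 was also above Clone 39 by the test at 323, Clone 39 above Clone 35 at 75, and the remaining 694 showed no called difference between those clones.

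SOX2, a transcription factor of stem cells (chr3:181711925-181714436, inside a long RNA gene on the same strand), was at 6.00, 13.04, 15.2 and 11.4 CPM in Clone 28, at 2.62, 2.20, 3.41 and 5.53 CPM in Clone 35, and at 0.402, 0.258, 0.271 and 0.998 CPM in Clone 39. The groups did not overlap, although the lowest Clone 28 library was close to the highest of Clone 35. Clone 28 was 3.31-fold above Clone 35 (log2 1.73 ± 0.21, adjusted p = 2.98e-09) and 21.1-fold above Clone 39 (4.40 ± 0.33, adjusted p = 1.65e-17); genes of chromosome 3 as a whole had a median log2 difference of 0.292 between Clones 28 and 39 and of -0.0214 between Clones 28 and 35. The orphan nuclear receptor NR2F1 was at 7.76, 8.41, 6.93 and 5.92 CPM in Clone 28, at 1.67, 2.03, 4.03 and 4.01 CPM in Clone 35, and at 0, 0.516, 0.813 and 0.399 CPM in Clone 39. It was 2.38-fold above Clone 35 and 16.9-fold above Clone 39, with few reads in Clone 39. H4C6, 1 of the many genes for histone H4, was at 14.5, 17.03, 15.2 and 20.5 CPM in Clone 28 and at 4.06 to 8.56 CPM in the other clones, 2.52-fold and 2.80-fold higher. ERICH3 was higher by 3.47-fold and 4.08-fold, PLEKHS1 by 2.41-fold and 3.67-fold, and RAI2, a retinoic acid-induced gene, by 2.35-fold and 3.36-fold.

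Along the long arm of chromosome 12, neighbouring genes were higher in Clone 28 as a block. Chromosomes were cut into 301 bins of 10 Mb, and 5 bins (1.66%) were higher in Clone 28 than in both other clones by at least 0.2 on the log2 scale of the bin median (limma, adjusted p under 0.1); no bin (0%) was lower. All 5 lay on chromosome 12. Without the limit on size, 25 bins passed the test upwards and 24 downwards, and none of those off chromosome 12 reached 0.2 in both comparisons. The median log2 difference from Clone 35 and from Clone 39 was 0.279 and 0.229 in the bin from 60 to 70 Mb, 0.302 and 0.258 from 70 to 80 Mb, 0.343 and 0.396 from 80 to 90 Mb, 0.291 and 0.223 from 100 to 110 Mb, and 0.250 and 0.210 from 120 to 130 Mb. The bins between them, at 50 to 60, 90 to 100 and 110 to 120 Mb, were positive in both comparisons but missed the size in at least 1, with 0.171 and 0.213, 0.215 and 0.195, and 0.208 and 0.164. In the last bin of the chromosome, from 130 to 140 Mb, the difference was -0.0965 and 0.0481.

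**Figure D2:**
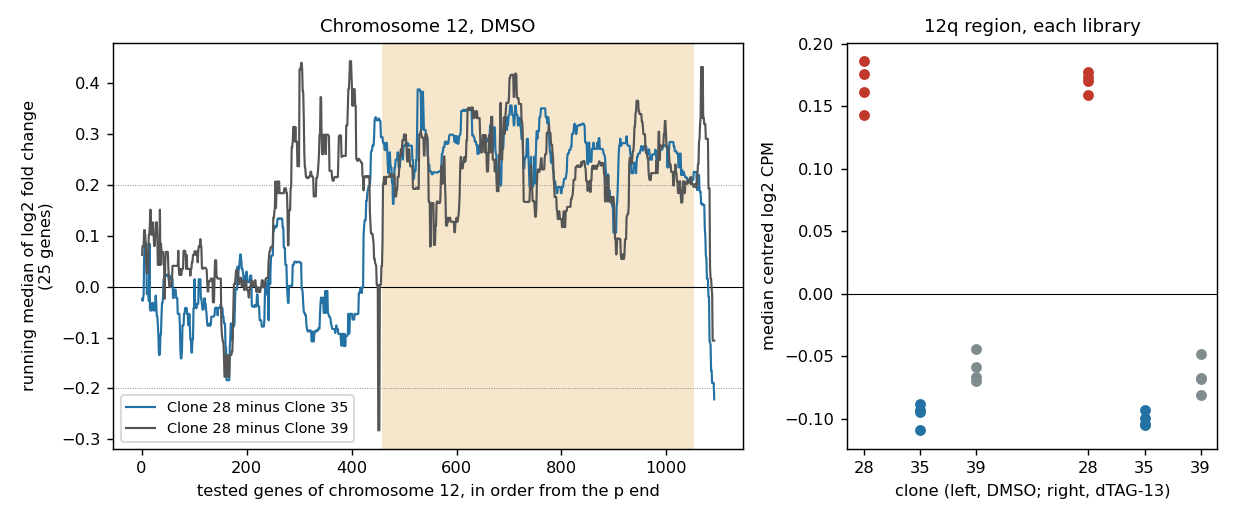
Left, the median log2 fold change over 25 consecutive tested genes along chromosome 12 in gene order, Clone 28 against Clone 35 and against Clone 39, with the span from the first to the last elevated run shaded. Right, the median over the 591 genes of that span in each of the 24 libraries (log2 CPM centred on each gene's mean), where all 4 Clone 28 libraries lie above all others in DMSO and again with dTAG-13.

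Traced at gene resolution as the median of 25 consecutive genes, both comparisons passed 0.2 in 10 separate runs of at least 10 windows, the first starting at chr12:54081736 and the last ending at chr12:124993645 (hg38). The gaps between runs were 0.185 to 7.48 Mb long. The 363 genes inside the runs had medians of 0.278 and 0.270 against Clones 35 and 39, and the 228 genes in the gaps had lower but positive medians of 0.230 and 0.155, with 71 of them specifically higher (31.1%). With protein-coding genes alone there were 7 runs. The whole span of 70.9 Mb, gaps included, is called the 12q stretch below and held 591 tested genes, 419 of them protein-coding. Because the borders were set on these DMSO differences, the DMSO values of the stretch are a description. The median gene was 1.2-fold higher than in Clone 35 (log2 0.263) and 1.17-fold higher than in Clone 39 (0.226), whereas Clones 35 and 39 differed by a median of -0.0318. In DMSO the median of the stretch was 0.143, 0.161, 0.186 and 0.176 in the 4 Clone 28 libraries, -0.109, -0.0929, -0.0940 and -0.0880 in Clone 35, and -0.0585, -0.0693, -0.0664 and -0.0437 in Clone 39. Clone 28 stood apart from both clones in every library, and its own libraries were close together. In the dTAG-13 libraries, which had no part in drawing the borders, the values were 0.173, 0.159, 0.170 and 0.177 in Clone 28, -0.105, -0.104, -0.0989 and -0.0924 in Clone 35, and -0.0679, -0.0675, -0.0807 and -0.0483 in Clone 39. The groups again did not overlap, and 6 of the 10 Mb bins were called there, all on chromosome 12 (6 also without replicate 2 of Clone 35). DNA copies were not measured.

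Within the stretch the shift was spread over many genes. The borders were set on the DMSO differences, so the DMSO shares given next were partly fixed by that choice and only describe the stretch. Of the 591 genes, 465 (78.7%) were above both other clones in the point estimate, against 31.6% of all other genes. By the test, 253 (42.8%) were specifically higher and 6 (1.02%) specifically lower, against 4.06% and 3.26% of all other genes, so that a stretch with 2.78% of the tested genes held 23.2% of the genes specifically higher in Clone 28. The middle 80% of the genes lay between -0.00442 and 0.478 against Clone 35 and between -0.121 and 0.606 against Clone 39. With dTAG-13, 288 of 587 (49.1%) were specifically higher and 5 lower (284 and 4 without replicate 2 of Clone 35), with medians of 0.273 and 0.240. Of the 20430 other genes tested there, 924 (4.52%) were higher and 822 lower. On the rest of chromosome 12, the 471 genes before the stretch had medians of -0.0307 and 0.0930 with 28 specifically higher (5.94%), and the 53 genes after it -0.0147 and 0.0747 with 4 specifically higher. The count of 253 was 242 without replicate 1 of Clone 28, 131 with DESeq2 and 140 without the replicate number in the model.

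Among the genes with the most polymerase in the called bins, FRS2, an adaptor of fibroblast growth factor receptors, was at 923, 883, 685 and 682 CPM in Clone 28, 765, 721, 572 and 528 CPM in Clone 35, and 454, 409, 345 and 353 CPM in Clone 39. Within every replicate number Clone 28 was highest, and the log2 difference was 0.30 ± 0.034 (adjusted p = 3.98e-10) and 1.02 ± 0.035 (adjusted p = 6.26e-36). KITLG, the ligand of the KIT receptor, differed by 0.40 ± 0.042 and 0.96 ± 0.044, and TMTC2 by 0.48 ± 0.043 and 0.42 ± 0.044. Smaller steps were called for HSP90B1, a chaperone of the endoplasmic reticulum (0.21 ± 0.050 and 0.28 ± 0.051), POLR3B, a subunit of RNA polymerase III (0.23 ± 0.048 and 0.39 ± 0.049), and RSRC2 (0.28 ± 0.043 and 0.30 ± 0.044). ERBB3, the receptor partner of HER2, also lies in the stretch and was at 151, 149, 160 and 166 CPM in Clone 28, 114, 120, 124 and 118 CPM in Clone 35, and 101, 111, 103 and 99.4 CPM in Clone 39. Its groups did not overlap (0.39 ± 0.048 and 0.60 ± 0.050). The block was not uniform: TXNRD1, encoding a thioredoxin reductase, differed by 0.040 ± 0.046 and 0.063 ± 0.047, and CLIP1 by 0.21 ± 0.044 and -0.0047 ± 0.044, and neither was called. CUX2, described above, is inside the stretch and differed far more than its neighbours. The 6 genes that were lower against the block were OAS1, OAS2 and OASL, all induced by interferon, an unnamed RNA gene that overlaps the OAS locus, LINC02385 and LINC01619.

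On chromosome 12 as a whole 285 of 1115 genes were specifically higher (25.6%), beside 5.14% of all genes. Next came chromosome 15 (9.40%, with medians of 0.0402 and 0.0298) and chromosome 18 (8.92%, with medians of 0.106 and 0.0842). The running median found 1 further run of at least 10 windows in which both comparisons passed 0.2, on chromosome 17 (chr17:18542155-19648136, from CCDC144BP to ALDH3A2). The run was picked on these DMSO differences, so its DMSO values only describe it. Its 27 genes were higher by a median of 0.211 than in Clone 35 and 0.732 than in Clone 39. Of them 13 were specifically higher, where all genes had a share of 5.14%. Clones 35 and 39 differed there by 0.480. In dTAG-13 the medians were 0.223 and 0.596, with 9 of 26 specifically higher, beside 5.64% of all genes tested there. With protein-coding genes alone, no run was found on chromosome 17.

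Genes induced by interferon were lower in Clone 28. The list of interferon response and antigen presentation genes had 34 tested members, of which 18 were specifically lower and 0 specifically higher (edgeR; 0 also at an unadjusted p under 0.05, and 0 with DESeq2); 31 were lower and 1 higher in both point estimates. The background was 3.19% for a specific decrease. Under the same rule, in either direction, 20 of the 34 were specific to Clone 39 and 0 to Clone 35. Over all genes, 10.7% were specifically higher and 13.3% lower in Clone 39. The median log2 difference was -0.315 against Clone 35 and -0.740 against Clone 39, where all tested genes had medians of -0.00200 and 0.00741. The median of the list, relative to each gene's mean, was -0.515, -0.367, -0.296 and -0.289 in Clone 28, -0.00542, 0.0255, -0.0790 and 0.0884 in Clone 35, and 0.302, 0.280, 0.402 and 0.479 in Clone 39. The 3 clones did not overlap and kept 1 order, and 27 of the 34 genes had their lowest mean CPM in Clone 28 and their highest in Clone 39, an order seen in 21.8% of all tested genes.

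**Figure D3:**
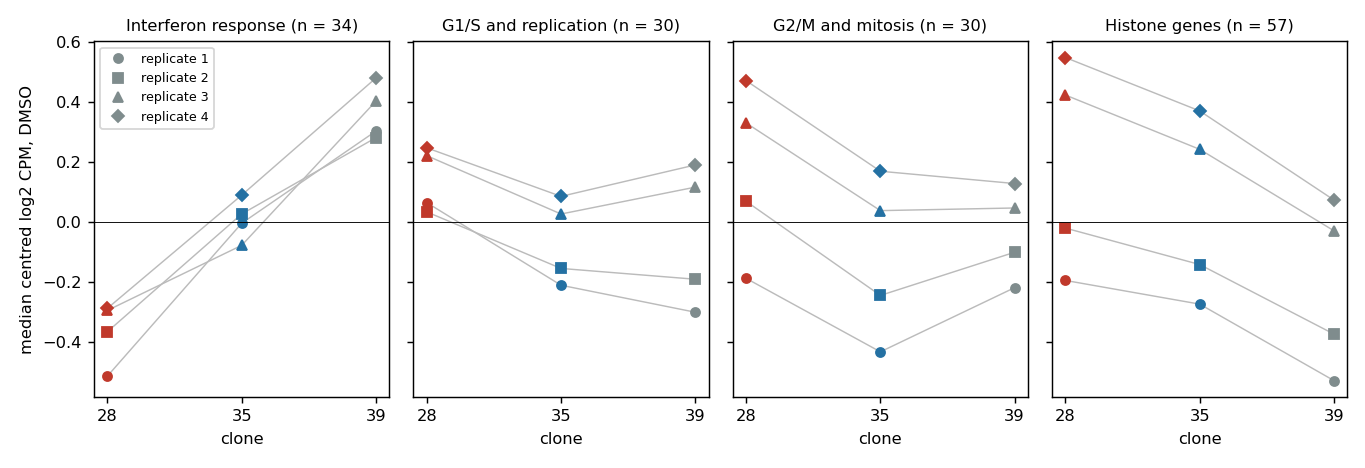
Median of 4 gene lists in each DMSO library, as log2 CPM centred on each gene's mean; points are libraries and grey lines join libraries of the same replicate number across clones. The interferon list is lowest in Clone 28 in every library, while the G1/S, G2/M and histone lists are highest in Clone 28 only within each replicate number.

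IFIT1, a protein that binds viral RNA, was at 3.50, 2.94, 4.55 and 4.93 CPM in Clone 28, at 11.2, 17.7, 11.3 and 16.99 CPM in Clone 35, and at 32.3, 28.1, 32.8 and 34.9 CPM in Clone 39. The groups did not overlap, and Clone 35 was 3.59-fold and Clone 39 8.01-fold above Clone 28 (log2 -1.84 ± 0.18, adjusted p = 2.25e-12, and -3.00 ± 0.16, adjusted p = 3.58e-24). IFI44 was at 0.751, 0.631, 1.08 and 0.395 CPM in Clone 28, 3.58, 2.36, 1.704 and 3.59 CPM in Clone 35, and 14.9, 11.4, 7.86 and 11.97 CPM in Clone 39. IFI6, a mitochondrial protein induced by interferon, was at 4.503, 3.58, 6.06 and 3.16 CPM, then 8.11, 13, 8.52 and 16.99 CPM, then 18.5, 18.1, 21.96 and 23.95 CPM, in the same order of clones. Both genes separated all 3 clones, with Clone 35 above Clone 28 by 3.86-fold and 2.74-fold and Clone 39 by 15.6-fold and 4.81-fold. XAF1, an interferon-induced promoter of apoptosis that was not on the list, was at 0.500, 0.631, 0.650 and 0.197 CPM in Clone 28 and at 1.24 to 4.19 CPM elsewhere.

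The decrease reached several functions within the list. MX1, an antiviral GTPase, had mean levels of 30.6, 62.3 and 126 CPM in Clones 28, 35 and 39 (log2 -1.04 ± 0.085 and -2.05 ± 0.081). OAS1, OAS2 and OASL, synthetases that switch on RNase L or resemble those that do, were lower, with log2 differences of -0.88, -1.02 and -0.86 from Clone 35 and -1.56, -2.50 and -2.37 from Clone 39, although they lie in the elevated part of chromosome 12. In antigen presentation, the peptide transporter TAP1, the immunoproteasome subunits PSMB8 and PSMB9, the activator NLRC5 and HLA-F were specifically lower, whereas HLA-B, HLA-C and B2M were not called (HLA-B -0.18 ± 0.16 and -0.036 ± 0.17). ISG15 and OAS3 were called only against Clone 39, and STAT2 (0.15 ± 0.086 and 0.14 ± 0.090), a further gene of the 12q stretch, in neither comparison. Of the immune cell markers, CD79A, LYZ and TYROBP were at 0 to 2 reads in every DMSO library, CD3E at 1 to 12 and PTPRC at 7 to 19, with PTPRC and CD3E no higher on average in Clone 28 (1.98 and 0.706 CPM) than in the other clones (2.62 and 0.921 CPM). Their part in the result was not tested. With dTAG-13, 14 members of the list were specifically lower and 0 higher (13 and 0 without replicate 2 of Clone 35), and the medians were -0.281 and -0.777; DESeq2 called 8 in DMSO, and leaving out 1 library gave 13 to 18, with 16 without replicate 1 of Clone 28.

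The promoters of 2 of these genes are printed because they carry the core of the interferon-stimulated response element, the sequence through which interferon acts on its target genes. Windows of 250 bases before to 50 after the RefSeq start (GRCh38.p14) are shown in the direction of transcription, IFIT1 at chr10:89392373-89392672 (plus strand) and IFI6 at chr1:27672143-27672442 (minus strand), with each match to GAAANNGAAA or its reverse complement TTTCNNTTTC in capitals.
IFIT1: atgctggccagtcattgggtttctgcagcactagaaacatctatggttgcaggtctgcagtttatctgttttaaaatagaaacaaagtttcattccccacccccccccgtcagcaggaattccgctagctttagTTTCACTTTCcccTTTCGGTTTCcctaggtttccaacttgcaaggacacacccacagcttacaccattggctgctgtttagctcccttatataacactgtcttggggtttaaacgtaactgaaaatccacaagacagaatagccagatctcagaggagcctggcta
IFI6: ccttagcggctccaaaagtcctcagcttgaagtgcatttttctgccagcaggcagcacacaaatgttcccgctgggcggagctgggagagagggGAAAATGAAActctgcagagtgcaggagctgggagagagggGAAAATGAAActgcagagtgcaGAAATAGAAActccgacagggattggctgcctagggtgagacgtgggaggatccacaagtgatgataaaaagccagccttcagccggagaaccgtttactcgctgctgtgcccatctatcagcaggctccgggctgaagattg
IFIT1 held 2 matches, which began at positions -116 and -103 from the start, and IFI6 held 3, at -156, -115 and -93. Of all 35116 windows of the same length, 3.57% held at least 1 match. A window was found for 24 of the 34 genes of the list, too few for a count over the list.

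Within the imprinted region of chromosome 15, 2 neighbouring genes went in opposite directions. NDN, which encodes the growth suppressor necdin, and MKRN3, which encodes a ubiquitin ligase that restrains puberty, are both normally read from the paternal chromosome only. NDN (chr15:23685400-23687305, minus strand, with no overlapping gene) had 20, 28, 27 and 32 reads in the Clone 28 libraries, 0 reads in all 4 Clone 35 libraries, and 1, 1, 1 and 0 reads in Clone 39. In CPM these were 5.00, 5.89, 5.85 and 6.31 in Clone 28, 0 in Clone 35, and 0.201, 0.258, 0.271 and 0 in Clone 39, so every Clone 28 library was clear of the others. Clone 28 was at least 46-fold higher than Clone 35, taking 3 reads over the group as the floor, and 34-fold higher than Clone 39 (95% interval 11.3 to 167, for counting error only). With dTAG-13 the reads were 18, 23, 47 and 31 in Clone 28, 0, 0, 1 and 0 in Clone 35, and 0, 0, 2 and 1 in Clone 39.

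MKRN3 (chr15:23565674-23630075, plus strand) was at 8.26, 6.73, 5.196 and 6.31 CPM in Clone 28, at 26.0, 27.4, 23.6 and 25.4 CPM in Clone 35, and at 26.5, 25.5, 21.4 and 17.4 CPM in Clone 39. Clone 28 was below all 8 others, which overlapped, and Clone 35 was 3.90-fold and Clone 39 3.41-fold above it (log2 -1.96 ± 0.14, adjusted p = 7.33e-19, and -1.77 ± 0.14, adjusted p = 6.67e-17). Among the other genes of the region, SNRPN, a splicing protein gene at the imprinting centre, differed by -0.19 ± 0.069 and -0.10 ± 0.072 and SNURF by -0.16 ± 0.073 and -0.17 ± 0.076, neither called in both comparisons; SNHG14, the long RNA downstream of them, was specifically lower at -0.16 ± 0.043 (adjusted p = 0.00508) and -0.35 ± 0.043 (adjusted p = 5.26e-10). A protein-coding gene without a symbol that overlaps SNURF was specifically lower too (-0.19 ± 0.064 and -0.30 ± 0.066). UBE3A, which most tissues read from both parental copies, differed by -0.0060 ± 0.047 and -0.057 ± 0.048. ATP10A, a lipid transporter gene further along, was lower than in Clone 39 (-0.39 ± 0.060, adjusted p = 2.19e-07) and was not called against Clone 35 (0.084 ± 0.060). The long RNA gene PWRN4 differed by 0.33 ± 0.28 and 0.77 ± 0.32, with a call against Clone 39 alone (adjusted p = 0.0556). Of 17 imprinted genes tested over the genome, 2 were specifically higher and 1 lower, beside 5.14% and 3.19% of all genes (1 and 2 without replicate 1 of Clone 28, 0 and 1 with DESeq2). The other higher gene was MEST, at 5.50, 2.94, 3.90 and 2.96 CPM in Clone 28, 1.86 to 2.39 CPM in Clone 35 and 0 to 0.258 CPM in Clone 39. DESeq2 gave no adjusted p against Clone 35 for NDN or MEST, so its count of 0 higher says nothing about these genes.

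The promoters of NDN (chr15:23687256-23687555, minus strand) and MKRN3 (chr15:23565424-23565723, plus strand) are printed with every CG dinucleotide, the site of DNA methylation, in capitals, since the silent copies of imprinted genes are marked by methylation; methylation itself was not measured.
NDN: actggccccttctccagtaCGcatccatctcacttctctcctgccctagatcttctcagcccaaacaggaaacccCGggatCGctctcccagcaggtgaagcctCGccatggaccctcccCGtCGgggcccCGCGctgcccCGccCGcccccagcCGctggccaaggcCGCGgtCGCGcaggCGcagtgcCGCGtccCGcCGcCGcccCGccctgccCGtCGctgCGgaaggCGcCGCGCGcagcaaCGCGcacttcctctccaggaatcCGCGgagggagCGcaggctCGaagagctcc
MKRN3: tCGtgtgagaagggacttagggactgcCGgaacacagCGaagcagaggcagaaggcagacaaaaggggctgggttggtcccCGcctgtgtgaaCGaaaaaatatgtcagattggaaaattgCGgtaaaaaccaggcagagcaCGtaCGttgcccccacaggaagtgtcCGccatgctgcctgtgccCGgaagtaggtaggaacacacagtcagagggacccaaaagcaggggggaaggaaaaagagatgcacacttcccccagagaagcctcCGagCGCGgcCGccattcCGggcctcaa
The NDN window held 35 CG dinucleotides, 0.951 of the number its base composition would give, and the MKRN3 window held 15, or 0.625 of that number.

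The genes furthest below the other clones outside the interferon response were varied. ASS1, which makes the arginine precursor argininosuccinate, was at 7.76, 7.57, 7.15 and 8.48 CPM in Clone 28, 23.4, 17.2, 17.5 and 18.8 CPM in Clone 35, and 40.6, 42.6, 56.1 and 47.3 CPM in Clone 39. The 3 groups were apart, with Clone 35 2.44-fold and Clone 39 5.96-fold above Clone 28. CALD1, the actin-binding protein caldesmon, was at 5.00, 3.37, 3.68 and 3.95 CPM in Clone 28, 8.59, 10.8, 7.75 and 9.67 CPM in Clone 35, and 15.1, 13.2, 11.7 and 11.4 CPM in Clone 39, again without overlap. REC8, a cohesin subunit of meiosis, was at 1.52 to 2.75 CPM in Clone 28 and 3.41 to 8.64 CPM in the others. MESP1, EIF4E1B, SMCO3 and FMNL1 were also below both clones, at 0 to 1.50 CPM in Clone 28, where a library held few reads of each.

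Proliferation genes were slightly higher in Clone 28, in every replicate number but not in every library. In the G1/S and DNA replication list 16 of 30 genes were specifically higher and 0 lower, in the G2/M and mitosis list 17 of 30 and 0, and among replication-dependent histone genes 23 of 57 and 0, against a background of 5.14% higher (edgeR; none was lower at an unadjusted p under 0.05 or with DESeq2 either). The medians against Clone 35 and Clone 39 were 0.190 and 0.180 for G1/S, 0.313 and 0.208 for G2/M, and 0.154 and 0.394 for histones. Under the same rule, in either direction, 2, 8 and 1 genes of the 3 lists were specific to Clone 35. For Clone 39 these counts were 4, 1 and 42, so more histone genes set Clone 39 apart than Clone 28. Over all genes the shares were 1.97% higher and 2.44% lower for Clone 35, and 10.7% and 13.3% for Clone 39. Dishes of 1 clone differed from each other as much as the clones did: the G2/M median was -0.189, 0.0679, 0.329 and 0.470 in replicates 1, 2, 3 and 4 of Clone 28, -0.434, -0.246, 0.0367 and 0.168 in Clone 35, and -0.220, -0.102, 0.0455 and 0.127 in Clone 39. The clones therefore overlapped, and within each of the 4 replicate numbers Clone 28 was the highest for all 3 lists, in DMSO and again with dTAG-13. Without the replicate number in the model, 1, 2 and 1 genes of the 3 lists were called. The G1/S count was also sensitive to single libraries, with 6 called without replicate 1 and 10 without replicate 2 of Clone 28; DESeq2 called 5, 10 and 12.

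Members of these lists showed the same picture one by one. AURKB, a kinase of chromosome segregation, was at 12.8, 18.3, 31.2 and 37.3 CPM in Clone 28, 12.6, 12.8, 18.0 and 23.8 CPM in Clone 35, and 6.63, 9.03, 13.8 and 14.4 CPM in Clone 39 (log2 0.57 ± 0.11, adjusted p = 0.000170, and 1.18 ± 0.13, adjusted p = 1.06e-11). Compared at 1 replicate number Clone 28 was highest each time, while its lowest library lay within the range of both other clones. KIF23, a motor of cell division, was at 42.5, 50.7, 53.5 and 65.7 CPM in Clone 28 and at 30.8 to 42.0 CPM elsewhere. All its Clone 28 libraries were above the others, unlike MKI67, the proliferation antigen, at 57.8, 68.1, 66.0 and 91.2 CPM against 38.7 to 65.3 CPM. MCM2, part of the replicative helicase, was at 65.0, 59.7, 65.2 and 68.7 CPM in Clone 28, 51.1, 49.0, 50.4 and 61.2 CPM in Clone 35, and 31.9, 32.2, 36.9 and 41.3 CPM in Clone 39; it lies on chromosome 3. The histone H3 gene H3C4 was at 53.3, 59.9, 95.7 and 119 CPM in Clone 28, 33.6, 52.0, 72.7 and 80.8 CPM in Clone 35, and 28.5, 29.7, 45.8 and 51.9 CPM in Clone 39. Histone genes come in near-identical copies, so reads may have been split between them. With dTAG-13, 16 G1/S genes were specifically higher and 1 lower, 16 and 0 of the G2/M genes, and 37 and 1 of the histone genes (14 and 0, 16 and 0, and 33 and 1 without replicate 2 of Clone 35), against 5.64% and 3.86% of all genes tested there.

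Among 20 luminal lineage transcription factors 5 were specifically higher and 1 lower, beside 5.14% and 3.19% of all genes, with medians of 0.0818 and 0.136. DESeq2 called 1 higher and 0 lower, and with dTAG-13 5 were higher and 2 lower. MYB, a target of the estrogen receptor, was at 45.5, 38.5, 32.7 and 33.4 CPM in Clone 28, 21.7, 19.9, 20.9 and 18.9 CPM in Clone 35, and 28.9, 28.1, 23.3 and 27.7 CPM in Clone 39. It separated Clone 28 from both (0.87 ± 0.093 and 0.46 ± 0.094). GATA3 differed by 0.12 ± 0.033 and 0.26 ± 0.033, TFAP2C by 0.15 ± 0.042 and 0.65 ± 0.044, and ZNF703 by 0.16 ± 0.054 and 0.37 ± 0.057. PGR, the progesterone receptor, was at 2167, 2236, 1571 and 1604 CPM in Clone 28, 1262, 1313, 1115 and 943 CPM in Clone 35, and 2004, 2002, 1571 and 1508 CPM in Clone 39, so that Clone 28 stood clear of Clone 35 only (0.70 ± 0.034 and 0.092 ± 0.034), and the difference from Clone 39 was -0.11 with dTAG-13. Of 16 luminal epithelial markers 5 were specifically higher and 0 lower (edgeR; 0 lower at an unadjusted p under 0.05 and with DESeq2), beside the same shares of all genes; DESeq2 called 3 higher, and with dTAG-13 2 were higher and 1 lower. Of these markers, ERBB3 lies in the 12q stretch. The secreted protein PIP was at 163, 138, 122 and 117 CPM in Clone 28, 112, 102, 87.1 and 81.8 CPM in Clone 35, and 40.8, 33.5, 23.9 and 28.9 CPM in Clone 39.

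Estrogen-induced genes had no common direction, with 2 of 24 specifically higher and 2 lower and medians of 0.0358 and -0.0989, beside 5.14% and 3.19% of all genes. Without replicate 1 of Clone 28 there were 0 higher and 1 lower, and with DESeq2 likewise 0 and 1 (edgeR; 3 higher and 2 lower at an unadjusted p under 0.05). FHL2, a LIM-domain coregulator, was lower, at 99.3, 88.8, 75.3 and 84.3 CPM in Clone 28, 116, 98.6, 92.7 and 97.5 CPM in Clone 35, and 222, 176, 184 and 171 CPM in Clone 39. Its lowest values were those of Clone 28 within each replicate number (-0.22 ± 0.052 and -1.11 ± 0.051). SIAH2 was higher (0.13 ± 0.047 and 0.75 ± 0.050) and the secreted glycoprotein STC2 lower (-0.10 ± 0.036 and -0.39 ± 0.036). The study chose 2 further lists of estrogen receptor targets from another experiment on Clone 28, so neither is independent evidence of a direction: 12 of 65 activated targets were specifically higher and 5 lower, and 9 of 57 repressed targets higher and 2 lower, again beside 5.14% and 3.19%. Of the 12 higher activated targets 4 lie in the 12q stretch, as does 1 of the 9 higher repressed targets. DESeq2 called 9 and 2 of the activated and 4 and 0 of the repressed targets, 8 and 1 of the repressed targets were called without replicate 1 of Clone 28, and with dTAG-13 these were 16 and 5, and 5 and 6. Of 9 basal and mesenchymal markers tested, 2 were lower, AXL and CDH3, and 0 higher (edgeR, with 0 higher also at an unadjusted p under 0.05 and with DESeq2). The shares over all genes were 3.19% and 5.14%. In both point estimates 5 markers were lower and 1 higher, while TP63, EGFR and ZEB1 differed from Clones 35 and 39 in opposite directions. AXL averaged 0.932 CPM in Clone 28 and lost its call in 7 of the fits that left out 1 library. With dTAG-13 AXL was not called (-0.64 and -0.27), while CDH3 was called again. With DESeq2, which gave no adjusted p against Clone 35 for AXL, 1 was lower, and 1 was lower without replicate 1 of Clone 28. The P-cadherin gene CDH3 was at 24.3, 28.2, 25.8 and 27.8 CPM in Clone 28, 37.7, 35.1, 36.9 and 38.1 CPM in Clone 35, and 33.4, 40.2, 40.7 and 40.9 CPM in Clone 39, with Clone 28 below all others (-0.47 ± 0.085 and -0.54 ± 0.089).

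TRPS1 itself was at 7381, 7223, 5306 and 5206 CPM in Clone 28, 7838, 7531, 5820 and 5571 CPM in Clone 35, and 8807, 8059, 6311 and 6429 CPM in Clone 39. The ranges overlapped across replicate numbers, but at each number Clone 28 was lowest, with a log2 difference of -0.094 ± 0.023 (adjusted p = 0.00225) from Clone 35 and -0.24 ± 0.023 (adjusted p = 3.53e-14) from Clone 39, or 0.937-fold and 0.846-fold. The first was not called with DESeq2, and neither was called without the replicate number in the model. None of 15 genes for the dTAG degradation machinery, 25 genes of cholesterol synthesis, 16 HOX genes or 3 cancer-testis genes was specific to Clone 28 in either direction with edgeR, at an unadjusted p under 0.05 or with DESeq2. The study used 2 degraders, dTAG-13 and dTAGV-1, and the list covers genes for both, although the treated libraries of these clones received dTAG-13 alone. Some of the degradation genes were called against Clone 39 alone. Among them were UBE2G1, a ubiquitin-conjugating enzyme (0.88 ± 0.054), and CUL4A, a scaffold of ubiquitin ligases (-0.83 ± 0.054). CRBN (0.38 ± 0.069) and VHL (0.37 ± 0.082), ligase subunits that bind the substrate, were others. Among 21 subunits of the NuRD and CoREST corepressors 1 was higher, the deacetylase HDAC1, and 2 lower, CHD5 and PHF21A (0 and 0 with DESeq2, and 4 and 2 at an unadjusted p under 0.05 with edgeR; 1 and 1 without replicate 1 of Clone 28); among 26 DNA methylation and Polycomb genes 2 were higher, UHRF1 among them (1 with DESeq2 and 1 without replicate 1 of Clone 28), and 0 lower (edgeR; 2 lower at an unadjusted p under 0.05 and 0 with DESeq2). Of 230 zinc finger genes on chromosome 19, 16 were higher and 3 lower, or 12 and 1 without replicate 1 of Clone 28, 3 and 0 with DESeq2 and 14 and 0 with dTAG-13 (13 and 1 without replicate 2 of Clone 35). All these counts stand beside 5.14% and 3.19% of all genes. Of 45 clustered protocadherins 5 were higher and 4 lower, and the 4 lower ones, PCDHA10 to PCDHA13, share their last exons and so their reads. Without replicate 1 of Clone 28 the protocadherin counts were 6 and 0, with DESeq2 0 and 0 (13 and 4 at an unadjusted p under 0.05 with edgeR), and with dTAG-13 9 and 0.

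The dTAG-13 libraries measured the same clone differences again. Of the 1092 genes specifically higher in DMSO, 1085 were tested with dTAG-13, 1008 (92.9%) had the same sign in both comparisons and 716 (66.0%) passed the same test; of the 679 lower genes, 674 were tested, 623 (92.4%) kept the sign and 366 (54.3%) passed. Leaving out the Clone 35 library with high snoRNA, 999 genes passed in place of 1082. Over all genes, 5.64% were called higher and 3.86% lower there. The 12 most elevated protein-coding genes, NDN to RAI2, all passed again. Of the 12 furthest below, XAF1, IFI44, IFIT1, MKRN3, IFI6, ASS1 and CALD1 passed again, while MESP1, EIF4E1B, SMCO3, FMNL1 and REC8 kept their sign and did not. In a test of whether the clone difference itself changed with treatment, over 22326 genes, 0 were called against Clone 35 and 2 against Clone 39, with 1051 and 1053 at an unadjusted p under 0.05 (edgeR).

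**Figure D4:**
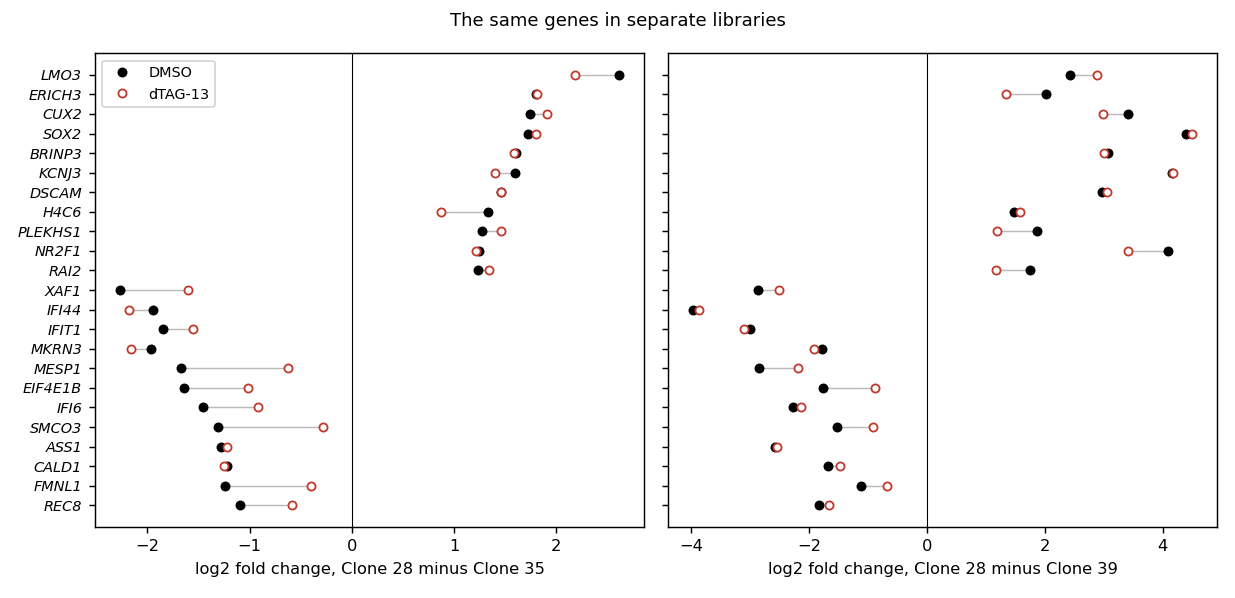
Log2 fold change of Clone 28 against Clone 35 and against Clone 39 for 23 of the 24 genes with the largest specific differences (NDN is left out, since Clone 35 had no reads in DMSO); filled points are DMSO and open points dTAG-13. Every gene keeps its sign, and the genes of low count, such as MESP1 and SMCO3, move most between the treatments.

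The snoRNA genes were the exception. In DMSO 41 of 187 (21.9%) were specifically higher in Clone 28 and 0 lower (edgeR; 0 at an unadjusted p under 0.05 and with DESeq2), and 12 of the 50 higher genes with a log2 fold change past 1 were snoRNAs. Of the 40 higher ones tested with dTAG-13, 1 passed again and 7 were positive in both comparisons. Their summed level was 5221 CPM in replicate 1 of Clone 28 and 2629, 2640 and 2243 CPM in replicates 2, 3 and 4. The count of specifically higher snoRNAs was 20 without that library, 27 without replicate 1 of Clone 35, 26 without replicate 1 of Clone 39 and 58 without replicate 4 of Clone 28. Both genes whose difference changed with treatment were snoRNAs, SNORA14B and SNORA36A. With the snoRNAs set aside, 38 higher genes had a log2 fold change past 1, 34 of them were tested with dTAG-13, all 34 kept their sign and 30 passed, and 1051 genes in all were specifically higher.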

How the data were processed

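Nascent transcription was measured by PRO-seq in 3 clones of T47D cells, with 4 DMSO and 4 dTAG-13 libraries each. The authors deposited raw read counts of 60605 genes per library, with no normalization. Per the study's methods, adapters were trimmed, PCR duplicates were removed by unique molecular identifiers, reads of ribosomal DNA were taken out, and the remaining reads were aligned to hg38 and counted in genes; the submitters' processing notes name cutadapt 1.8.1, Bowtie2 2.4.4 and SAMtools 1.9. The annotation and the strand setting of the counting are not given in the sources used here, so genes that overlap on either strand can share reads. Gene names, types and positions were taken from GENCODE release 44, which matched 60463 of the IDs.

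Counts were filtered with filterByExpr (minimum count 10), scaled by TMM and tested with edgeR 4.0.16 (R 4.3.3; robust quasi-likelihood, clone plus replicate number, 6 residual degrees of freedom), with Benjamini-Hochberg adjustment and a threshold of 0.1, on the 12 DMSO libraries and separately on the 12 dTAG-13 libraries. The replicate number was a term because dishes were collected at different times of the day and same-numbered libraries deviated together (12 pairs, correlations 0.156 to 0.372). No 2 DMSO libraries of the same clone agreed within sampling noise (chi-square per degree of freedom 1.67 to 6.38). Bins of 10 Mb with at least 10 tested genes were compared with limma 3.58.1 on the median per library of centred log2 CPM (prior count 2). DESeq2 1.42.0, other scalings, filters and thresholds and the removal of each library were alternatives. The fits were tested on simulated counts. Named genes were, among protein-coding genes specific to Clone 28 with no overlap between groups and a mean of at least 1 CPM, the 12 highest and the 12 lowest by the smaller log2 fold change, up to 4 specific members of each of 19 gene lists, 3 genes of each called bin, and TRPS1; other members of the interferon list, the genes around NDN and the 6 genes lower in the 12q stretch were named after their values were seen. Some genes that the rule picks are not reported here. The gene lists, the members and the comparison were chosen with earlier results of these data known. Promoter windows were found for 78.6% of the tested protein-coding genes, under the 80% set as a minimum, so counts of motifs or CG over gene sets are void. Depth limits genes of few reads, and intervals cover counting error only.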

Additional observations from a re-analysis of the deposited data

Results flagged for a closer look

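Among 255 groups of 4 libraries examined, 8 held 1 value far from the other 3, by Dixon's ratio of its gap to the whole range; chance flags about 1 in 20 groups. BRINP3 in Clone 39 was at 21.1 CPM in replicate 3 and 28.1 to 28.9 CPM in the others (ratio 0.895). ZNF703 was at 112 CPM in replicate 4 of Clone 28 against 102 CPM in the others (0.922) and at 88.1 CPM in replicate 4 of Clone 35 against 95.2 to 95.9 CPM (0.905). TFAP2C in Clone 39 was at 134 CPM in replicate 2 and 141 to 142 CPM in the others (0.8293), and CDH3 in Clone 39 at 33.4 CPM in replicate 1 and 40.2 to 40.9 CPM in the others (0.910). AXL in Clone 28 was at 0.592 CPM in replicate 4 and 1.00 to 1.08 CPM in the others (0.833), and MCM2 in Clone 35 at 61.2 CPM in replicate 4 and 49.0 to 51.1 CPM in the others (0.830). The summed snoRNA level of Clone 28 was 5221 CPM in replicate 1 and 2243 to 2640 CPM in the others (0.867).

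The difference between Clones 28 and 39 changed with treatment for 2 genes, both snoRNAs. By the interaction term of edgeR over all 24 libraries, it was lower with dTAG-13 than with DMSO by a log2 change of -1.93 for SNORA14B and -2.40 for SNORA36A, each with an adjusted p of 0.0672. Their DMSO values include the Clone 28 library with high snoRNA, and its part in these changes was not tested.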

How the results depend on the processing

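Without the replicate block the counts fell to 380 genes specifically higher, 221 lower, 996 called against Clone 35 and 5286 against Clone 39, 1 gene of the G1/S, 2 of the G2/M and 1 of the histone list, 140 in the 12q stretch and 10 snoRNAs, and TRPS1 lost its calls (-0.0914 and -0.237). DESeq2 also called fewer, with 430 and 191 specific genes, 1102 and 4660 pairwise calls, 24 large decreases, 8 interferon, 5 G1/S, 10 G2/M, 12 histone and 131 genes of 12q, 24 snoRNAs, and TRPS1 no longer called against Clone 35 (-0.0928). It gave no adjusted p for 1649 genes against Clone 35 and for 0 against Clone 39, and genes without one count as not called. Among them were 8 named genes, NDN, XAF1, MESP1, EIF4E1B, SMCO3, FMNL1, AXL and MEST. A threshold of 0.05 left 441 lower genes. The 12 dTAG-13 libraries alone gave 33 large increases, 37 histone genes and 2 snoRNAs, and all 24 libraries together 1381 lower genes, 4972 calls against Clone 35, 25 large decreases and 6 snoRNAs. Bins of 5 Mb gave 12 calls, 11 on chromosome 12 and 1 on chromosome 4, and a mean in place of the median added a bin of chromosome 6. The cause of these shifts was not tested.

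Leaving out 1 library in turn gave 887 to 1034 higher and 478 to 684 lower genes, 2269 to 3107 calls against Clone 35 and 7005 to 8047 against Clone 39, 39 to 64 large increases and 31 to 48 large decreases, 13 to 18 interferon, 6 to 17 G1/S, 13 to 20 G2/M, 17 to 25 histone, 218 to 242 12q and 20 to 58 snoRNA genes, 5 to 6 bins, and TRPS1 differences of -0.114 to -0.0828 and -0.264 to -0.222. The lowest G1/S and snoRNA counts were those without replicate 1 of Clone 28. Among named genes the smaller of both differences changed sign for CLIP1, not called, which was 0.0044 without the filter, 0.111 with dTAG-13, 0.0499 over all 24 libraries and -0.0317 to 0.0357 on leaving out 1 library; for TXNRD1 (-0.00839 to 0.0907), not called either; for PGR (-0.105 with dTAG-13 and -0.0082 over all 24 libraries); and, with dTAG-13, for MUC1 (-0.0210), HDAC1 (-0.0169), PCDHA11 (0.0154) and PCDHA10 (0.0324). Among the named genes 822 of 912 such values kept sign and call, and under RLE scaling all 76 did. Leaving out replicate 2 of Clone 35 among the dTAG-13 libraries, chosen after seeing the data, gave 1089 higher and 732 lower genes there in place of 1215 and 832.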

Other observations

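Some members of the study's estrogen receptor target lists, which were split by their response to TRPS1 depletion in Clone 28 itself, stood apart in these libraries. CLRN1-AS1, an antisense RNA gene of chromosome 3, was at 72.6, 71.3, 55.2 and 65.7 CPM in Clone 28, 40.6, 43.2, 38.3 and 34.0 CPM in Clone 35, and 36.6, 33.5, 29.8 and 25.6 CPM in Clone 39. Its Clone 28 libraries were above all others, and it overlaps 3 genes on each strand. NEK10, a kinase gene of the same chromosome, differed by a log2 change of 0.46 ± 0.056 from Clone 35 and 0.49 ± 0.059 from Clone 39 (SE). GSTM5, a glutathione transferase, was lower, at 55.0, 52.6, 40.9 and 45.0 CPM in Clone 28 against 64.5 to 83.0 CPM in the other clones, with no overlap.

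Bins outside chromosome 12 also passed the test at smaller sizes. The end of the X chromosome (150 to 160 Mb) differed by a median of 0.158 from Clone 35 and 0.164 from Clone 39 in DMSO and by 0.139 and 0.128 with dTAG-13, and the first 10 Mb of chromosome 18 by 0.143 and 0.141, and 0.0922 and 0.0961.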
